A study of Mus musculus with 4 samples.

Results

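Plasma cells are described here among dissociated islet cells of NOD mice, a strain that develops autoimmune diabetes. The cells were measured by droplet single-cell RNA-seq, which counts unique molecular identifiers (UMIs), that is, tagged transcripts, per gene and cell. A cell was taken as a plasma cell when it had at least 500 detected genes, at most 20% of its UMIs from mitochondrial genes, at least 20 Jchain UMIs, at least 5 Mzb1 UMIs and less than 10% of its UMIs from 7 hormone genes (Ins1, Ins2, Iapp, Gcg, Sst, Ppy and Pyy). That rule gave 99 plasma cells among 16146 cells. The reference was B cells of the same libraries, taken as cells with at least 2 Cd79a UMIs, at least 1 Cd79b UMI, fewer than 20 Jchain UMIs and no Cd3e UMI.

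The series holds 2 groups of 2 samples, all from mice aged 5 weeks. In 1 group Xbp1 was deleted in beta cells (Xbp1β-/-), and the other carried the floxed allele (Xbp1fl/fl). Both groups received intraperitoneal tamoxifen at 10 mg/ml on 5 consecutive days, which switches on the Cre recombinase. The promoter that drives Cre was not given in the sources used here. Islets were hand-picked and held in culture overnight before dissociation, and no sort by cell type is described. The deposited matrix numbers its barcodes by 4 libraries, and no label ties a library to a sample. No genotype could therefore be compared, values are given by library number, and no test was run.

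Plasma cells are B cells that have turned into antibody factories. Prdm1, Irf4 and Xbp1 switch off the B cell program and enlarge the endoplasmic reticulum (ER), where heavy and light chains are folded and joined before secretion. Jchain links IgM and IgA into polymers, and Mzb1 is a chaperone for IgM assembly. Each plasma cell normally transcribes one rearranged heavy chain and one rearranged light chain, so its variable segments mark its origin. In NOD islets, B cells and plasma cells belong to the infiltrate that accumulates with age.

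Most plasma cells came from 1 library. Library 1 held 70 plasma cells of 3635 cells (1.93%, exact binomial 95% interval 1.50 to 2.43%). Library 3 held 26 of 3455 (0.753%, 0.492 to 1.10%), and library 2 held 3 of 5268 (0.0569%, 0.0117 to 0.166%). Library 4 held 0 of 3788, which allows a share of up to 0.0792% when 3 cells are taken as the limit of a count of 0, and up to 0.0973% by the exact binomial interval. B cells were unevenly spread in the same way, with 683, 31, 530 and 1 cells in libraries 1 to 4. All intervals cover counting error only. Among plasma cells the median depth was 27100 UMIs and 3967 genes in library 1, and 23741.5 UMIs and 3026.5 genes in library 3. The 3 cells of library 2 had 3367, 14865 and 40535 UMIs. B cells were shallower, at a median of 4294 UMIs in library 1. Of the barcode sequences of all cells kept, 28 occurred in more than 1 library. None was shared between plasma cells, and 1 plasma cell had its barcode sequence in another library as well.

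Jchain stood clear of its limit, while Mzb1 and the hormone share came close to theirs. Jchain ran from 82 UMIs through a median of 535 to 2051, and the next lowest cell had 88. Of the cells that met every other condition, 14 had 1 to 19 Jchain UMIs, and the highest of them had 16. Mzb1 ran from 7 UMIs through a median of 225 to 697, and 4 cells with enough Jchain had too little Mzb1, the highest having 4. The hormone limit left out 4 cells at 11.0 to 25.1% hormone UMIs, while the highest plasma cell had 9.53%. These are the measures that chose the cells, and nothing is read from them.

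The label was checked against markers. Of the 9 plasma cell markers (Jchain, Mzb1, Igkc, Xbp1, Sdc1, Prdm1, Irf4, Tnfrsf17 and Derl3), 9 were detected in plasma cells of libraries 1 and 3. Jchain and Mzb1 are part of the rule, and 8 of the 9 were also detected in B cells of both libraries, where Tnfrsf17 was at 0, so detection alone does not set the classes apart and levels are given. Igkc, the kappa light chain constant gene, was present in 69 of 70, 3 of 3 and 26 of 26 plasma cells in libraries 1, 2 and 3. In T cells, which do not express it, it stood at 31.0 and 50.3 CPM (defined below) in libraries 1 and 3, against 202974 and 519545 in plasma cells. Xbp1 was present in 70 of 70, 3 of 3 and 25 of 26. The mast cell markers Cma1, Mcpt4 and Cpa3 and the neutrophil markers S100a8 and S100a9 were at 0 in both libraries. Markers of other classes were detected. In libraries 1 and 3, T cell markers summed to 36.6 and 115 CPM in plasma cells and 16.5 and 8.27 in B cells. The B cell rule excludes Cd3e. Endothelial markers stood at 9.76 and 222 against 103 and 103, and dendritic markers at 66.5 and 244 against 226 and 233. Delta cell markers stood at 48.2 and 3407 against 4210 and 6507. Ductal, acinar, fibroblast and macrophage sums were below those of B cells in both libraries. Of 4 markers of plasmacytoid dendritic cells, Siglech was at 0 and 3 (Bst2, Ccr9 and Tcf4) were detected in both. Their sum was 1126 and 1268 CPM in plasma cells of libraries 1 and 3 and 527 and 562 in B cells, and the part of such cells in it was not tested. The T cell gene Cd3e had UMIs in 3 plasma cells of library 1 and 3 of library 3. In library 1, 2 plasma cells had at least 2 UMIs of Lyz2 or C1qa, which mark macrophages, with up to 48 of Lyz2. Over 1% hormone UMIs were found in 0, 3 and 2 plasma cells of libraries 1, 2 and 3, so each of the 3 cells of library 2 carried islet transcripts. The median hormone share of B cells was also higher in library 2, at 5.51%, against 0.285 and 0.332% in libraries 1 and 3. Whether these transcripts came from the cell itself, from a doublet or from the surrounding fluid was not tested. No doublet caller was run, and with all cells past these Cd3e, Lyz2 or C1qa, or hormone limits left out, 65, 0 and 22 plasma cells remained. Transcripts of other classes were not part of this filter.

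Immunoglobulin transcripts took a median of 21.0% of a plasma cell's UMIs in library 1 (3.54 to 70.3%) and 36.6% in library 3 (16.4 to 66.0%). The 3 cells of library 2 had 29.0%, 30.8% and 45.5%. In B cells the median was 1.22% in library 1 and 1.30% in library 3. Levels below are therefore given as CPM, that is, UMIs per 1000000 of the UMIs outside immunoglobulin segment genes, Jchain and the 7 hormone genes.

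IgM was the main class in libraries 1 and 3. A cell was given the heavy constant gene that held at least 80% of its heavy constant UMIs. In library 1, Ighm led in 64 of 70 cells (91.4%) and Igha, the IgA constant gene, in 6. In library 3, Ighm led in 20 of 26 (76.9%), Igha in 3, and the IgG genes Ighg2b, Ighg2c and Ighg3 in 1 each. The 3 cells of library 2 were all IgG, with Ighg2c in 2 and Ighg2b in 1. Kappa light chains led in 68 of 70, 3 of 3 and 25 of 26 cells.

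The variable segments were concentrated in library 1. The heavy segment Ighv4-1 (ENSMUSG00000076655, an immunoglobulin V gene, GRCm38 chr12:113948282-113948796, minus strand) led in 43 of 70 plasma cells (61.4%, 49.0 to 72.8%). In 41 of them it went with Ighm and with the light segments Igkv10-94 and Igkv10-96, whose reads were counted together because the reference copies differ at 16 bases. This light segment was called among Igkv segments alone, an alternative chosen after seeing the data. With Iglv included and each segment separate, as first planned, 1 cell of library 1 was led by an Igkv10 segment, 19 by Iglv1, and 34 had no segment at 60%. In the 41 cells Iglv1 had a median of 30 UMIs, against 28 for all Igkv segments together. By constant gene 40 of the 41 were kappa and 1 was mixed. The 41 cells had 37 to 270 heavy segment UMIs each, with a median of 116. In B cells, 5 of 683 in library 1 and 3 of 530 in library 3 had an Ighv4-1 UMI, each with 1. The last 294 coding bases of 3 segments are shown because they name the cells. They are the dominant heavy segment, the heavy segment closest to it among 112, which itself led in 4 plasma cells, and Igkv10-94. Reads of Igkv10-94 and Igkv10-96 were counted together, and which of them took more is not given here. Capitals mark bases that differ from the closest other segment (Ighv11-2 for Ighv4-1, Ighv11-1 for Ighv11-2, Igkv10-96 for Igkv10-94). They are GENCODE reference sequences on GRCm38, not reads of these NOD mice.
Ighv4-1: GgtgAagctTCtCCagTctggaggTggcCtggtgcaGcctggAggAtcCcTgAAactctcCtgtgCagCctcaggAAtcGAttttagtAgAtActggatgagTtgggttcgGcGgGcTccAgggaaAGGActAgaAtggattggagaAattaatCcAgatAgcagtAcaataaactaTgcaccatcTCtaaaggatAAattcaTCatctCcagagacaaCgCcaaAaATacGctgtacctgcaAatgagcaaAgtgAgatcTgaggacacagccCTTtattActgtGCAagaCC
Ighv11-2: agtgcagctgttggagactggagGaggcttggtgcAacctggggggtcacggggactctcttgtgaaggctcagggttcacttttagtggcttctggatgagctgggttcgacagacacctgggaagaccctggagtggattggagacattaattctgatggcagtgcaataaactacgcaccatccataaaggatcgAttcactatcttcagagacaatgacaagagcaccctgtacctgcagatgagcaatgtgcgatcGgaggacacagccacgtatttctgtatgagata
Igkv10-94: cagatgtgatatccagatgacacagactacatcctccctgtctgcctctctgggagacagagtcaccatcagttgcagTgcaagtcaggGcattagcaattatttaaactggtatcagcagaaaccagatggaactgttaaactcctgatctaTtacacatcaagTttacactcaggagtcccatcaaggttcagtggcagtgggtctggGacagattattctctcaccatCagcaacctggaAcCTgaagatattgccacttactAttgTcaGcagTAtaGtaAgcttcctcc
Ighv4-1 was 76.2% identical to Ighv11-2, with 81 differing bases. Igkv10-94 was 95.4% identical to Igkv10-96. NOD alleles can differ from the reference, so a segment name means the reference copy that took the reads. Shared segments do not show a shared clone, because the junction sequence that would is not part of gene counts.

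Other segments were held by fewer cells. Ighv5-9 led in 9 plasma cells of library 1 (12.9%), all Ighm. Their immunoglobulin share was a median of 5.50% (3.54 to 38.0%), against 19.3% (9.78 to 60.3%) in the Ighv4-1 cells and 37.2% (14.9 to 70.3%) in the other 18 cells of that library. All 9 were kappa by their constant gene, although 7 had fewer than 5 Igkv UMIs. Ighv11-2 with Igkv14-126 led in 3 cells of library 1 and 1 of library 3, and Ighv12-3 with Igkv4-91 in 1 cell of library 1. These pairs are textbook receptors of B-1 cells that bind phosphatidylcholine. The 2 Igha cells led by Ighv1-78 shared Igkv8-21 as well.

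Library 3 was more varied. Its most frequent pair was Ighv4-1 with Igkv6-32, in 4 Ighm cells, so its Ighv4-1 cells used another light segment than those of library 1. Ighv1-9 with Igkv1-132 led in 3 cells, and the remaining pairs in 1 or 2 cells each. In library 2, Ighv1-82 led in the 2 Ighg2c cells and Ighv1-19 in the Ighg2b cell.

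**Figure D1:**
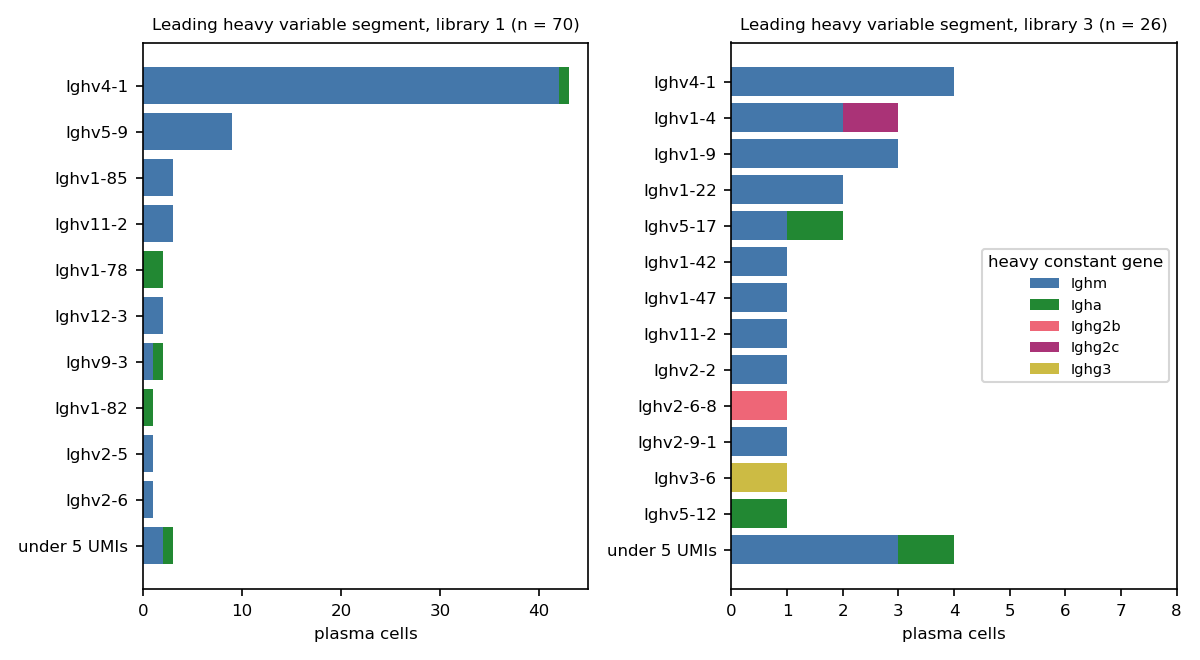
Number of plasma cells by leading heavy variable segment in libraries 1 and 3, with bars split by the leading heavy constant gene. Ighv4-1 leads in 43 of 70 cells of library 1, while no segment leads in more than 4 of the 26 cells of library 3.

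Most Ighv4-1 cells of library 1 carried an IgG transcript beside IgM. Of the 41 Ighm cells with Ighv4-1 and Igkv10-94 or Igkv10-96, 19 had 23 to 122 Ighg1 UMIs (median 61) and 0 Ighg2b UMIs. Another 17 had 27 to 248 Ighg2b UMIs (median 119) and 0 Ighg1 UMIs. A further cell had both, at 86 and 97, and 4 had 0 of each. The IgG transcript was thus of 1 kind per cell in all but 1 of the 37 cells that had it. Its UMIs came to a median of 4.60% of the Ighm UMIs in the Ighg1 cells (2.43 to 7.49%) and 6.82% in the Ighg2b cells (1.78 to 15.8%), with no correction for transcript length. Among the 9 Ighv5-9 cells and the 20 Ighm cells of library 3, none had an Ighg1 or Ighg2b UMI. Of the 13 other Ighm cells of library 1, 1 had 22 Ighg2b UMIs and 5 Ighg1 UMIs, and 12 had 0 of each. The Ighv4-1 Ighm cell with no leading light segment had 56 Ighg2b UMIs. Outside the Ighm cells, 3 of the 6 Igha cells of library 1 also had Ighg2b, with 29 UMIs in an Ighv4-1 cell and 63 and 79 in the 2 Ighv1-78 cells. A second heavy constant transcript was not limited to library 1 or to these genes. In library 2, the 2 Ighg2c cells had 96 and 8 Ighg2b UMIs. In library 3, the Ighg3 cell had 31 Ighm UMIs and the Ighg2c cell 32 Igha UMIs. An Ighm cell of library 1 led by Ighv2-5 had 12 Ighg2c UMIs. Reads were assigned by gene, so a transcript that joins a variable segment to both constant regions cannot be told apart from separate ones.

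**Figure D2:**
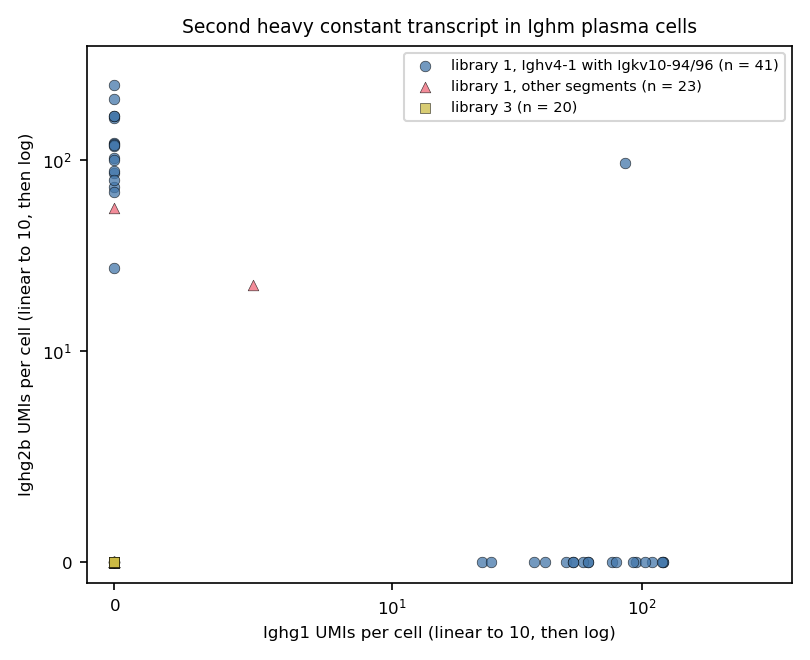
Ighg1 against Ighg2b UMIs in each plasma cell led by Ighm. The 41 Ighv4-1 cells with Igkv10-94 or Igkv10-96 lie on one axis or the other except for 1 cell with both and 4 at 0, and the cells of library 3 lie at 0; the Ighv4-1 cell with no leading light segment is drawn among the other cells of library 1.

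The subgroups were close in depth, with a median of 25216 UMIs in the Ighg1 cells and 27599 in the Ighg2b cells. Their levels of most genes named here lay near each other: Xbp1 stood at 1320 and 1262 CPM, Hsp90b1 at 13271 and 13152, and Mki67 at 526 and 460. Slpi, described below, stood at 4329 in the Ighg1 cells and 1965 in the Ighg2b cells, where 1 cell held 40.2% of its UMIs.

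Against B cells, 475 of 11272 genes (4.21%) were at least 2-fold higher in plasma cells in libraries 1 and 3, and 520 (4.61%) at least 2-fold lower. Within 1 library the shares were 7.45% higher and 8.24% lower in library 1, and 6.06% and 8.59% in library 3. The median log2 ratio of all genes was -0.15 in library 1 and -0.18 in library 3, and 6 genes were past 2-fold in opposite directions. With all UMIs in the total, the medians were -0.29 and -0.50, and the counts were 229 higher and 911 lower, so the higher share of these calls went from 47.7% to 20.1%. Ratios are log2 of CPM plus 10, which understates the change of low genes. A pair of values in parentheses after a gene gives its log2 ratios in libraries 1 and 3, and after a list the median log2 ratios of its genes. The cells were chosen from the same measurements, so these ratios describe the cells and test nothing. Library 2 had too few plasma cells to compare.

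The plasma cell transcription factors were mostly higher. Of 9 measured, 6 were at least 2-fold higher in both libraries and 0 lower, with median log2 ratios of 2.05 and 2.49. Xbp1, the driver of ER expansion and the gene floxed in this study (ENSMUSG00000020484, GRCm38 chr11:5520659-5525893, plus strand), stood at 1211 CPM (95% interval 1158 to 1266) in plasma cells and 44.6 (38.9 to 51.0) in B cells of library 1. In library 3 it stood at 1276 (1163 to 1398) and 54.8 (48.0 to 62.4), and in the 3 plasma cells of library 2 at 828 (541 to 1214). The log2 ratios were 4.48 and 4.31. The label places the deletion in beta cells, and the exon removed is not given, so these levels check no deletion. Single plasma cells ran from 154 through a median of 1157 to 5635 CPM in library 1, and from 0 through 1040 to 4686 in library 3.

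Eaf2, an elongation factor partner of Ell2, had the highest ratio of the list, at 747 against 6.17 CPM in library 1 and 490 against 11.1 in library 3 (log2 ratios 5.55 and 4.57). Creb3l2, a membrane-bound transcription factor of the secretory pathway (2.58 and 2.82), Pou2af1, the B cell co-activator OBF-1 that also acts upstream of Xbp1 (2.05 and 2.49), and Bhlha15, the secretory factor Mist1 (2.10 and 1.97), were higher in both libraries. Prdm1, which encodes Blimp-1, stood at 72.6 against 15.2 CPM in library 1 and 197 against 24.1 in library 3 (1.71 and 2.60). Irf4 had log2 ratios of 1.83 and 0.62, so it passed 2-fold in library 1 only. Ikzf3, known for long-lived plasma cells, had -0.66 and -1.02, and Zbtb20 had -0.14 and 0.42.

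B cell transcription factors were lower. Of 18 measured, 13 were at least 2-fold lower in both libraries and 0 higher (medians -2.40 and -1.76). Pax5, the B cell identity factor, stood at 7.32 against 214 CPM in library 1. In library 3 it had 0 UMIs in plasma cells against 189 CPM in B cells, at least 23.0-fold lower at a floor of 3 UMIs per library. Ebf1 (-4.24 and -3.67), Klf2, which controls lymphocyte traffic (-3.80 and -3.25), Bcl11a (-3.53 and -3.39) and Bach2, which holds back Prdm1 (-3.04 and -3.54), were the next lowest of those with UMIs in every group. Ciita, the master regulator of MHC class II, Spib and Aff3 were also at 0 in plasma cells of library 3, at least 15.2-fold, 7.59-fold and 4.80-fold lower. Id3 (-2.60 and -1.18), Irf8 (-2.14 and -1.76), Foxp1 (-2.58 and -1.77), Ets1 (-2.39 and -1.37) and Pou2f2 (-2.02 and -1.28) made up the rest of the 13. Bcl6 (-1.16 and -0.90), Foxo1 (-0.80 and -0.90), Ikzf1 (-0.90 and -0.78), Spi1 (-0.35 and -0.38) and Mef2c (-0.39 and 0.03) did not pass 2-fold in both.

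Surface genes followed the same division. Of 13 plasma cell surface genes, 8 were higher and 0 lower (medians 1.23 and 1.76). Sdc1, the plasma cell antigen CD138, stood at 216 and 263 CPM in plasma cells of libraries 1 and 3 and at 17.7 and 14.4 in B cells (3.03 and 3.48). Tnfrsf17, the APRIL and BAFF receptor BCMA, stood at 48.2 and 82.2 CPM and had 0 UMIs in B cells, at least 78.1-fold and 116-fold higher. Cd28, a co-stimulatory receptor first known from T cells, stood at 67.1 and 112 CPM against 0.206 and 0.473 in B cells. Slamf7 (2.79 and 2.69) and the adhesion receptor Cd44 (1.85 and 1.76) were also higher. Plasma cells with Cd3e transcripts are in these sums. A filter left out cells with Cd3e, with at least 2 UMIs of Lyz2 or C1qa, or with over 1% hormone UMIs. After it, Cd28 had a mean log2 ratio of 3.25 over the libraries, against 3.23 before. In library 1, the 6 Igha cells held 48 Cd28 UMIs, 25 of them in 1 cell, and the 64 Ighm cells held 62.

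Of 24 genes of the B cell receptor and B cell surface, 17 were lower and 0 higher (medians -2.24 and -1.84). Cd22, an inhibitory receptor, stood at 4.27 against 120 CPM in library 1 and was at 0 in plasma cells of library 3, at least 11.5-fold lower. Cd72 stood at 23.2 against 208 CPM in library 1 and was at 0 in library 3 as well, at least 27.7-fold lower. The IgM receptor Fcmr (-3.67 and -2.20) and Siglecg (-3.10 and -2.89) were lower in both. Cd24a (1.01 and 0.80), Blnk (0.27 and -0.18) and Cd52 (-0.49 and 0.44) had a positive ratio in at least 1 library.

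MHC class II genes, which present antigen to CD4 T cells, were lower in 8 of 11 and higher in 0 (medians -2.003 and -2.76). H2-Eb1 stood at 741 and 364 CPM in plasma cells and 3108 and 2897 in B cells. H2-Ob (-3.67 and -4.04), H2-Oa (-3.25 and -3.29) and H2-DMb2 (-3.09 and -4.22), which edit the peptide load, were lower still. Cd74, the invariant chain, had -1.24 and -0.68, and the protease gene Ctss -0.08 and 0.51.

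Traffic receptors split by gene. Of 18 measured, 2 were higher and 6 lower (medians -0.72 and 0.31). S1pr1, the exit receptor from lymphoid tissue, stood at 16.5 and 11.0 CPM against 322 and 328. The chemokine receptor Ccr6 (-3.35 and -2.81) and the follicle receptor Cxcr5 (-1.90 and -1.84) were lower too. Ccr10, a receptor for the mucosal chemokines CCL27 and CCL28, stood at 49.4 and 112 CPM against 0.206 and 0 in B cells, at least 158-fold higher in library 3. The other gene past 2-fold higher was Selplg, a selectin ligand (1.18 and 1.45).

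In the 6 secretory lists, 100 of 136 genes were higher and 0 lower. ER chaperones were higher in 15 of 20 (medians 2.77 and 2.36). Hsp90b1, the ER chaperone GRP94, stood at 11464 and 10309 CPM in plasma cells and 504 and 866 in B cells (4.48 and 3.56). Creld2 (4.85 and 4.50), Fkbp11 (4.12 and 4.68), Sdf2l1 (4.04 and 3.74) and Manf (3.77 and 3.25), all ER-resident proteins, were also higher. Hspa5, the chaperone BiP that binds unassembled heavy chains, had 2.70 and 2.41.

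ER oxidoreductases, which form disulfide bonds, were higher in 11 of 16 (medians 1.90 and 1.44). Txndc5 led at 2513 and 2147 CPM against 90.5 and 56.7, followed by Pdia4 (4.05 and 3.73), Pdia6 (3.86 and 3.16), Txndc11 (3.62 and 3.20) and the peroxiredoxin Prdx4 (3.10 and 3.57). Of the 2 oxidases that recharge them, Ero1l had 1.77 and 1.44 and Ero1lb 0.07 and 0.68. ER-associated degradation, the disposal of misfolded chains, was higher in 16 of 19 (medians 1.85 and 2.04). Edem1, a lectin that hands over misfolded glycoproteins, stood at 1527 and 1030 CPM against 40.3 and 52.2. Derl3 stood at 331 and 504 against 10.3 and 13.0. Edem2 (3.44 and 3.68), Sel1l (2.66 and 3.36) and Selenos (2.83 and 2.57), of the retrotranslocation complex, were also higher.

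Translocation into the ER and signal peptide removal had 19 of 24 higher genes (medians 2.44 and 2.03). Sec11c, a signal peptidase subunit, stood at 2884 and 3423 CPM against 226 and 250. Ssr2 (3.64 and 2.63), Srprb (3.17 and 2.51), Spcs3 (3.06 and 3.24) and Spcs1 (3.11 and 2.62) belonged to the same steps. N-glycosylation had 14 of 21 (medians 1.82 and 1.33), led by the oligosaccharyltransferase subunits Rpn1 (3.28 and 2.72) and Ddost (3.28 and 2.66). Transport from ER to Golgi had 25 of 36 (medians 1.58 and 1.37). There the cargo receptor Lman1 led, at 1145 and 871 CPM against 59.8 and 91.5.

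**Figure D3:**
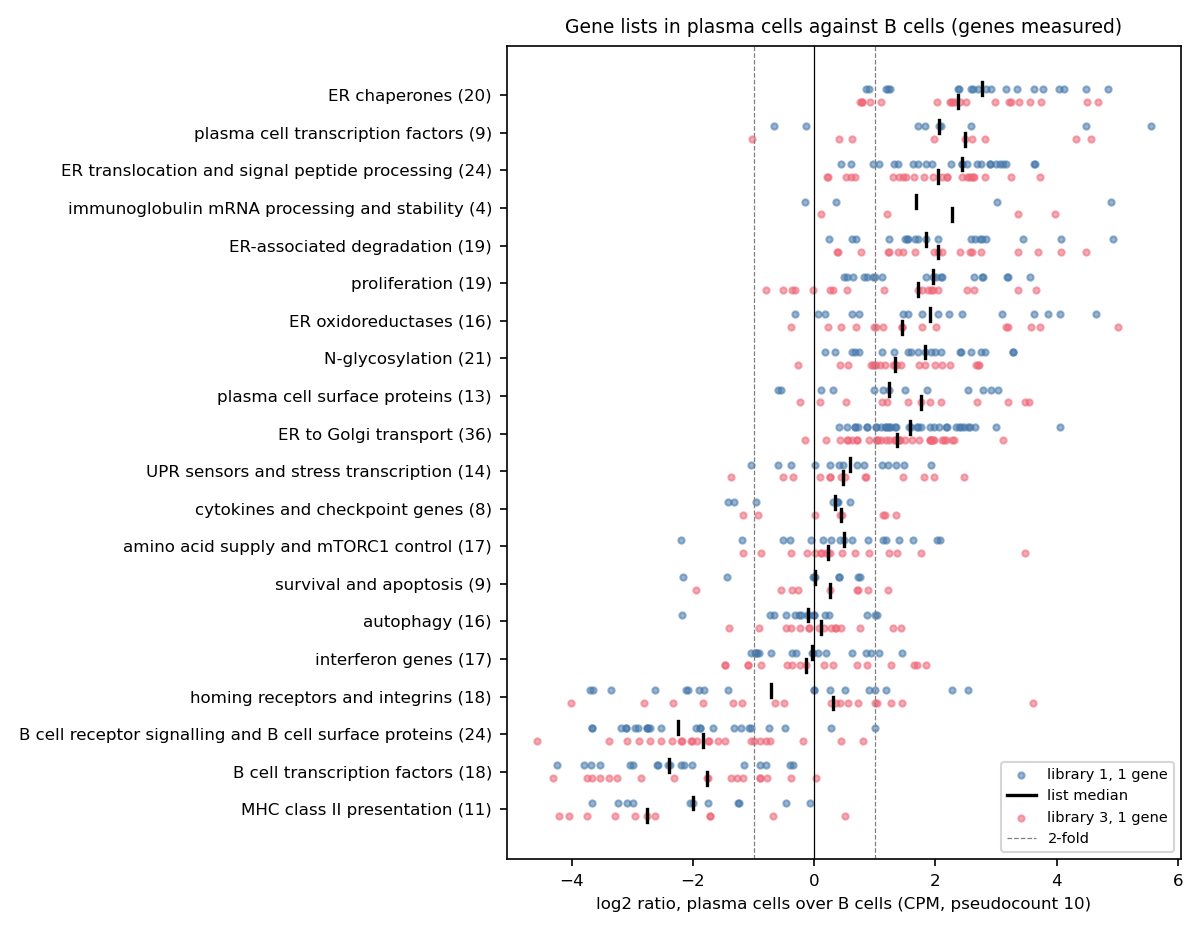
Log2 ratio of plasma cells over B cells for each measured gene of the 20 lists, in libraries 1 and 3, with black ticks at list medians. The medians of the 6 secretory and 2 plasma cell lists lie right of the 2-fold line, at 1.23 or above, and those of the 3 B cell and MHC class II lists lie left of the lower one.

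The same machinery was set beside other cells of the islet, since endocrine cells also secrete. Summed over the 20 ER chaperones, plasma cells stood at 28519 CPM in library 1 and 28998 in library 3. Delta cells stood at 9120 and 9513, beta cells at 7374 and 6928, alpha cells at 6715 and 6461, T cells at 6103 and 4172, and B cells at 2495 and 3573. Plasma cells were above delta cells, the next highest class, by 3.13 and 3.05 times. For ER-associated degradation the levels were 7015 and 7677 in plasma cells, and the next highest class was beta cells at 2463 and 2434. For ER to Golgi transport the lead was narrower, at 10387 and 9526 in plasma cells against 6433 and 6468 in delta cells. Hormone and immunoglobulin transcripts were left out of the totals in every class, and beta cells may belong to either genotype.

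**Figure D4:**
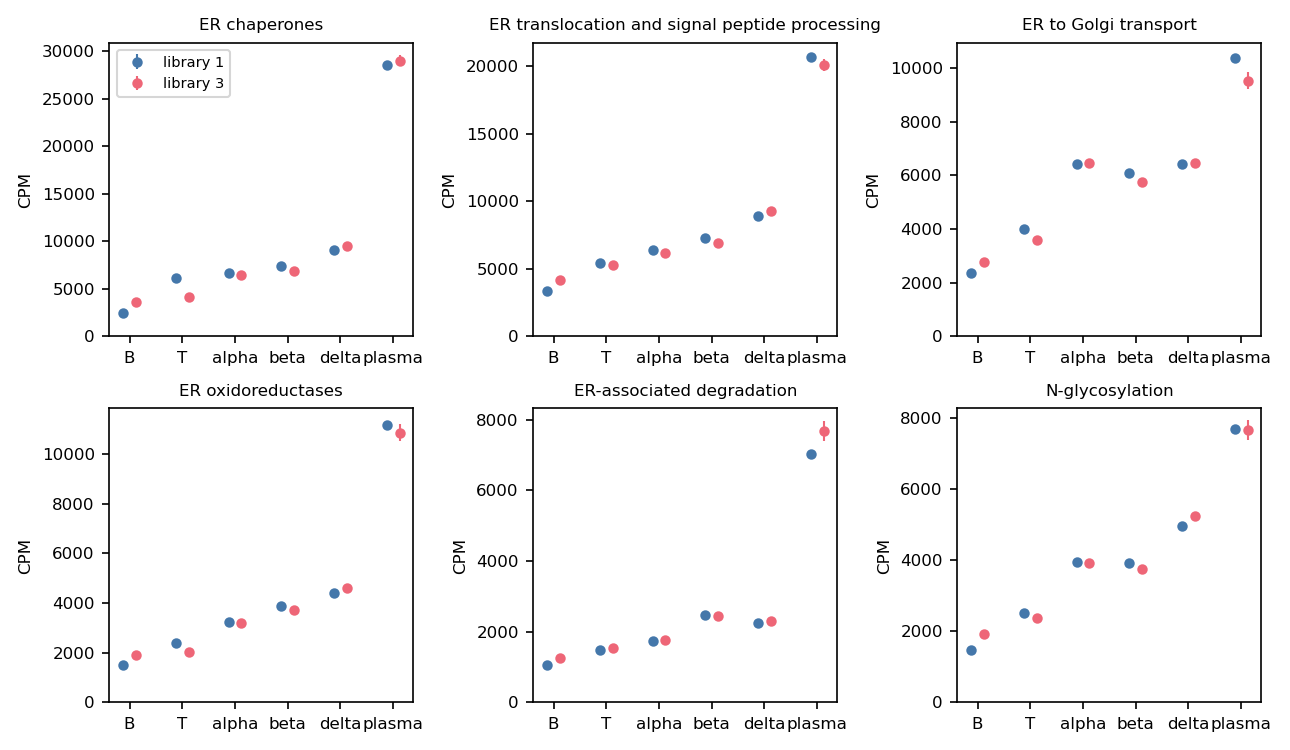
Summed CPM of 6 secretory gene lists in B, T, alpha, beta, delta and plasma cells of libraries 1 and 3, with exact Poisson 95% intervals, most of them smaller than the points. Plasma cells are highest in each panel, for ER chaperones at 28519 and 28998 CPM.

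Promoters of these genes were searched for elements known from the unfolded protein response, the program by which cells raise ER capacity. The windows were the 250 bases before each RefSeq gene start on GRCm38.p6, and both strands were read. Of the 136 genes in the 6 secretory lists, 107 matched a promoter by symbol. The ER stress response element, CCAAT and CCACG with 9 bases of any kind between them, was found in 9 of the 107 (8.41%) and in 35 of all 27025 genes with a promoter (0.130%). The 9 were Calr, Canx, Creld2, Derl3, Dnajc3, Hsp90b1, Hspa5, Pdia6 and Syvn1. Of these, 8 were at least 2-fold higher in plasma cells in both libraries, and Canx, which had log2 ratios of 1.25 and 0.79, was not. Of all 107, 78 were at least 2-fold higher in both libraries, so most were higher with or without the element. The TGACGTGG core, bound by XBP1 and ATF6 in other work, was found in 7 of 107 (6.54%) and 0.603% of all genes. ERSE-II, ATTGG and CCACG with 1 base between them, was found in Herpud1 alone of the 107, and in 10 of all genes (0.0370%). The short core CCACG, which is contained in the first element and in ERSE-II, was found in 63.6% of the 107 and 31.0% of all genes. A match is a string of letters and not a bound site.

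The promoters of 4 genes with the first element are shown because these ER genes, higher in plasma cells in both libraries, share the element. Capitals mark the match on either strand, and positions are counted back from -1, the base before the gene start. In Creld2 (chr15:88819396-88819645, plus strand) the match lay at -126 to -108, in Hspa5 (chr2:34771840-34772089, plus strand) at -65 to -47, and in Derl3 (chr10:75893148-75893397, plus strand) at -156 to -138. In Hsp90b1 (chr10:86705445-86705694, minus strand) there were 2 matches, at -212 to -194 and -107 to -89.
Creld2: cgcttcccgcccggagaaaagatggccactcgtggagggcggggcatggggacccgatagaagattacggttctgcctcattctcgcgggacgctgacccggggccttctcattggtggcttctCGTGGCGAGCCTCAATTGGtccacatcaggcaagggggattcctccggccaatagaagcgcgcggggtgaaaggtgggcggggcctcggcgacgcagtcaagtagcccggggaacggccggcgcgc
Hspa5: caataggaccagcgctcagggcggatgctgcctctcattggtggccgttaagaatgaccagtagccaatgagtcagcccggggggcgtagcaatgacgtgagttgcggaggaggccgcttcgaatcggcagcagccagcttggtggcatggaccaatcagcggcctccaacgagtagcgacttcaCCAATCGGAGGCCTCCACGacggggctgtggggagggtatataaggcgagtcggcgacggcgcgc
Derl3: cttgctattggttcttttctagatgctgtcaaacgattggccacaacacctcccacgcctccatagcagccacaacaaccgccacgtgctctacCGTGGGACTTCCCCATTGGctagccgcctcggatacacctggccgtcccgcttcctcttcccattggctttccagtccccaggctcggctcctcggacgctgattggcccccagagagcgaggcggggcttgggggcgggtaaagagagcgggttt
Hsp90b1: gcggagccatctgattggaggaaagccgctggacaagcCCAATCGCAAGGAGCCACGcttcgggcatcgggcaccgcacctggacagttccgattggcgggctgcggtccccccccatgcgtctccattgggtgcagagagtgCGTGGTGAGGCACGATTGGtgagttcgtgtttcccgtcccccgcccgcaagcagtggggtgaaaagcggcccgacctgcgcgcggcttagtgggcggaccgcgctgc
Sdf2l1, Pdia4, Edem1 and Xbp1 held none of the 3 longer elements in this window, which says only that these letters are not there.

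The sensors of the unfolded protein response were less uniform than its secretory genes. Of 14 measured, 4 were higher and 0 lower (medians 0.59 and 0.47). Ern1, which encodes IRE1α, the enzyme that splices Xbp1 mRNA, stood at 36.0 and 98.6 CPM against 11.1 and 17.5. Atf6 (1.48 and 1.82) and Atf6b (1.34 and 1.46, with a mean of 0.95 when all UMIs are in the total), membrane-bound stress factors, and Chac1, a glutathione-degrading target of ATF4 (1.92 and 2.47), were the other 3. The PERK gene Eif2ak3 had 1.22 and 0.85, Atf4 0.82 and 0.84, and Ddit3, the stress factor CHOP, 0.41 and 0.44. Trib3 (-1.05 and -0.51) and Atf3 (-0.39 and -1.37) had negative ratios in both libraries.

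In the smaller lists few genes passed 2-fold. Over all genes, 4.21% were higher and 4.61% lower in both libraries, so 1 or 2 genes of a list say little about the list. Of 4 genes of immunoglobulin mRNA processing and stability, 2 were higher: Tent5c, a poly(A) polymerase that lengthens immunoglobulin mRNA tails (4.90 and 3.97), and Ell2, which favors the secreted form of heavy chain mRNA (3.01 and 3.36). Of 17 genes of amino acid supply and mTORC1 control, 4 were higher and 1 lower (medians 0.50 and 0.22, with a mean of -0.01 when all UMIs are in the total). The transporter partner Slc3a2 stood at 409 and 1208 CPM against 92.7 and 99.97, and Slc1a5 (2.08 and 1.76), Slc7a5 (1.63 and 1.37) and Phgdh, of serine synthesis (1.13 and 1.23), were also higher. Sesn3, an inhibitor of mTORC1, was lower (-2.19 and -1.17). Bcl2, a survival gene, was lower (-2.16 and -1.94), alone among 9 survival and apoptosis genes. Of 16 autophagy genes (medians -0.10 and 0.12), Ccpg1 was higher (1.03 and 1.43) and Retreg1 lower (-2.18 and -1.40), both of them receptors for ER turnover. Of 17 interferon genes, Bst2 (1.45 and 1.70) and Zbp1 (1.06 and 1.84) were higher and 0 lower. Tgfb1 was lower (-1.42 and -1.17), alone among 8 measured cytokine and checkpoint genes, and Il10 had 0.37 and 0.43.

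Cell cycle transcripts were higher in sum, and unevenly spread over cells. Of 19 proliferation genes, 10 were higher than in B cells and 0 lower (medians 1.95 and 1.71). Mki67, a marker of cycling cells, stood at 427 and 603 CPM against 38.3 and 49.9 in B cells. Ube2c (3.56 and 3.66), Rrm2 (3.19 and 1.78), Birc5 (2.78 and 2.03) and Cdk1 (2.76 and 2.63) were also higher, while the 6 Mcm genes, of DNA replication licensing, had log2 ratios of 0.50 to 1.12 in library 1 and -0.79 to 0.30 in library 3. Cells differed widely. Mki67 was absent from 15 of 70 plasma cells of library 1 and 13 of 26 of library 3. In library 3, 5 cells had 11, 17, 57, 61 and 63 Mki67 UMIs and the other 21 had 0 to 3, so the summed level rests on 5 cells and the median cell stood at 14.9 CPM. The 19 genes together stood at 3423 CPM in summed plasma cells there and 1320 in summed B cells. The median plasma cell stood at 277, which is not comparable with the B cell sum, and no median over B cells was taken. An Mki67 UMI was found in 23 of 683 B cells of library 1 and 20 of 530 of library 3, at lower depth. Cells with an Mki67 UMI had a lower median immunoglobulin share than cells without, 19.3% against 38.0% in library 1 and 31.0% against 48.2% in library 3, with median depths of 29900 against 22614 and 20344 against 24341 UMIs. These depths include immunoglobulin UMIs. A larger immunoglobulin share leaves fewer UMIs in which Mki67 can be seen, and its part in this difference was not tested. Among plasma cells of library 1, the median Mki67 level was 326 CPM in the 43 Ighv4-1 cells, 380 in the 9 Ighv5-9 cells and 0 in the other 18. The 4 Ighv4-1 cells of library 3 had a median of 14.9 CPM.

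The segment groups of library 1 differed in more than division. Cells that share segments may descend from 1 cell, so they are not independent, and the groups below are described only. They also differ in heavy chain class. The Ighv5-9 cells were all Ighm and 1 of the 43 Ighv4-1 cells was Igha. Ighm led in 13 of the other 18 cells and in 20 of the 26 of library 3. Class and segment were not separated here. Cxcr3, a receptor for chemokines that interferon induces, had 75 UMIs in the 43 Ighv4-1 cells (71.3 CPM, 56.1 to 89.4) and 35 in the 9 Ighv5-9 cells (118, 82.0 to 164). It had 1 UMI in the other 18 cells of library 1 and 5 in the 26 cells of library 3. Prg2, an eosinophil granule protein gene, differed the other way in library 1, with 2 UMIs in the Ighv4-1 cells and 51 in the other 18 cells (176 CPM). Library 3 had 137 (375 CPM). There the 4 Ighv4-1 cells stood at 0, 89.5, 102 and 815 CPM, so low Prg2 did not follow the segment across libraries. In the other 18 cells of library 1, 8 had a Prg2 UMI and 1 cell held 45.1% of them. The Ighv5-9 cells had 11, of which 9 were in 1 cell. Its UMIs in library 3 were spread over 16 cells, and the highest cell held 27.0% of them. Slc3a2 stood at 281 and 215 CPM in the Ighv4-1 and Ighv5-9 cells and at 1068 and 1208 in the other cells of library 1 and in library 3. Prdm1 stood at 42.8 and 87.5 against 165 and 197. Xbp1 stood at 1346, 626, 1323 and 1276 in the same order, so the Ighv5-9 cells were lowest. With the Ighv4-1 cells left out, 477 genes were higher and 558 lower than in B cells, and these held 404 of the 475 and 408 of the 520 found with them.

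Outside the lists, Slpi had the highest ratio (ENSMUSG00000017002, GRCm38 chr2:164354070-164389095, minus strand). It encodes a secreted inhibitor of serine proteases. It stood at 2626 and 7321 CPM in plasma cells and 10.7 and 17.3 in B cells (log2 ratios 6.99 and 8.07). The 3 IgG cells of library 2 had 232, 1732 and 4219 Slpi UMIs, which is 196980 CPM (192100 to 201952) of their UMIs outside immunoglobulin and hormone genes. The 3 IgG cells of library 3 had 0, 574 and 700 UMIs, or 25697 CPM. Ighm cells stood at 2685 and 4314 CPM in libraries 1 and 3, and Igha cells at 1712 and 5378. The Igha levels rest mostly on 1 cell in each library, with 0, 0, 6, 8, 30 and 128 UMIs in library 1 and 0, 1 and 190 in library 3. Single Ighm cells ran from 0 to 22721 CPM in library 1 and from 0 to 44495 in library 3, so the classes overlapped there, while each of the 3 IgG cells of library 2, at 112023 CPM or more, lay above every other plasma cell. Those 3 cells also carried 2.15 to 5.06% hormone UMIs, against a median of 5.51% in B cells of library 2. The part of hormone transcripts in the Slpi level was not tested.

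Ccr10 was higher in Igha than in Ighm cells in sum. The 6 Igha cells of library 1 had 0, 4, 5, 14, 18 and 21 Ccr10 UMIs, or 617 CPM (473 to 791), and the 64 Ighm cells stood at 12.4 (7.44 to 19.3). In library 3 the 3 Igha cells had 0, 3 and 8 UMIs, 310 CPM (155 to 554), and the 20 Ighm cells stood at 21.4 (7.86 to 46.6). These intervals cover counting error only, while cells of 1 class varied more widely, and 2 of the 6 Igha cells share a leading heavy segment, Ighv1-78. The highest count in library 3, 23 UMIs, was in an IgG cell. Ccr10 marks antibody-secreting cells bound for mucosal surfaces, where most are IgA.

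**Figure D5:**
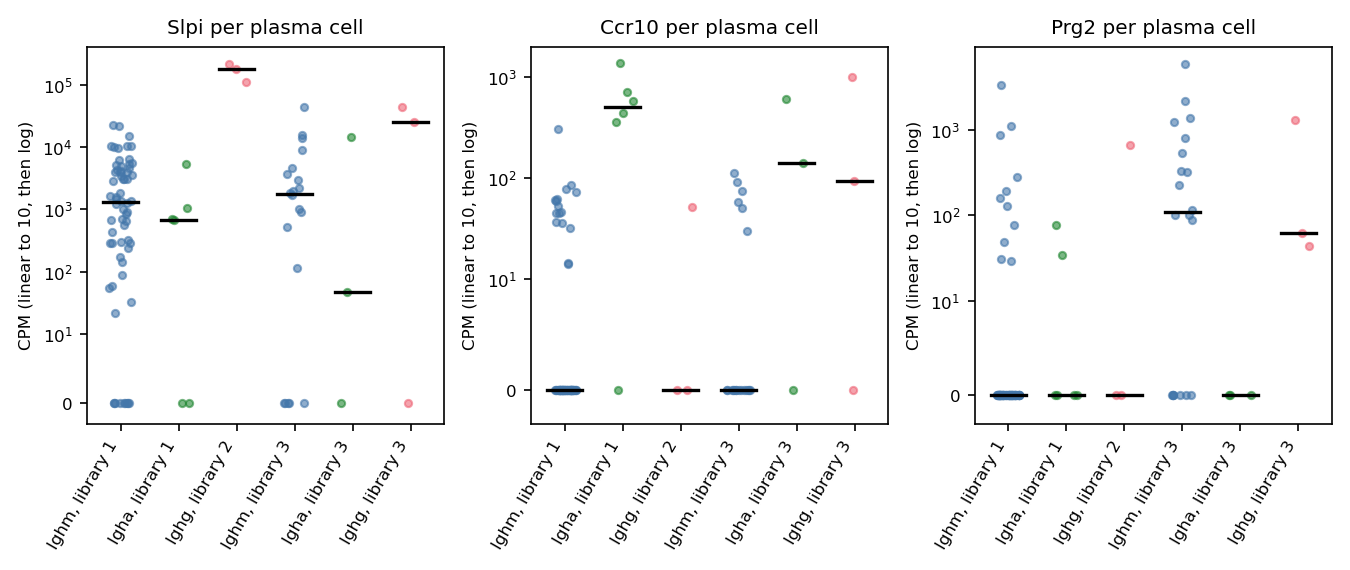
Slpi, Ccr10 and Prg2 in CPM of each plasma cell by leading heavy constant class and library, on an axis that is linear to 10 and logarithmic above, with black lines at medians. The 3 IgG cells of library 2 are highest for Slpi, and 5 of 6 Igha cells of library 1 lie above every Ighm cell for Ccr10.

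The other 11 genes with the highest ratios outside the lists were of varied kinds. Glipr1 (4.18 and 3.40), the ER membrane protein gene Ckap4 (3.81 and 3.98), the p53 target Trp53inp1 (3.70 and 4.09) and the paraoxonase Pon3 (3.97 and 3.82) were among them. So were H13, the signal peptide peptidase (3.76 and 3.14), Rexo2, a mitochondrial RNase (3.78 and 3.10), Rgcc (3.61 and 3.62) and the predicted gene Gm5547 (3.37 and 3.76). Pkd2l2, a channel gene of the polycystin family, stood at 193 and 104 CPM against 1.23 and 1.42. Tg, the thyroglobulin gene, stood at 154 and 101 CPM against 3.08 and 2.36. Prg2 was at 0 in B cells, so plasma cells were at least 63.3-fold and 529-fold higher.

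The 12 lowest genes were a mixture. Bank1, a B cell scaffold (-3.56 and -3.80), Plac8 (-2.63 and -3.79), the CD20 relative Ms4a4c, the interferon-induced Samd9l, Sorl1 (-3.37 and -3.12), Rflnb (-3.62 and -3.13) and BE692007 (-3.68 and -3.46) were lower in both libraries. Samd9l and Ms4a4c were at 0 in plasma cells of library 3, at least 18.6-fold and 20.5-fold lower. Crybb3, Npy and Resp18, which beta cells and other endocrine cells express, came from few B cells. The B cell rule has no hormone limit, and 10 of 683 B cells in library 1 and 22 of 530 in library 3 had at least 10% hormone UMIs. These held 9.24 and 19.3% of all B cell UMIs and 93.95 to 97.3% of those of Crybb3, Npy and Resp18. Without them the mean log2 ratio was -0.53 for Crybb3, -0.35 for Npy and 0.49 for Resp18, so these 3 no longer passed 2-fold. For Nupr1 (-5.58 and -2.20), 1 B cell held 59.7 and 63.1% of the B cell UMIs of libraries 1 and 3, and for Cldn4 (-3.93 and -2.70) 1 B cell held 40.2 and 21.1%. In library 1, 1 B cell also held 80.7% of the acinar marker UMIs of all B cells.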

How the data were processed

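Droplet single-cell RNA-seq of islet cells was deposited as 1 matrix of UMI counts over 32285 genes. The authors made these counts with Cell Ranger 6.1.2 on mm10, per the submitters' processing notes and the file headers; its annotation was not given in the sources used here. Barcodes end in a library number that no source ties to a sample, so samples could not be grouped and no test was run. Plasma cells and B cells were summed per library, scaled to CPM outside 400 genes (immunoglobulin segments, Jchain and hormones), and compared as log2 ratios with a pseudocount of 10. Genes needed at least 10 UMIs in either class, classes at least 20 cells, which left libraries 1 and 3, and a gene was called past 2-fold. This leaves depth (2154504 and 628230 plasma cell UMIs in libraries 1 and 3) as the limit on low genes.

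A variable segment led where the segments compared had at least 5 UMIs in all and it held at least 60% of them. Intervals are exact (binomial for shares, Poisson for UMIs, 95%). Named genes were the markers, all members of both transcription factor lists, up to 5 members of each other list and 12 genes in each direction outside the lists. The members of other lists and the genes outside the lists were taken by mean log2 ratio, with at least 50 UMIs. They also had to be past 2-fold with the same sign in both libraries. Members that did not pass 2-fold, Cxcr3, and Slc3a2 and Prdm1 by segment group were chosen after their values were seen. The plasma cells and all lists were chosen with earlier results of these data known. V segment sequences and gene coordinates came from GENCODE M21 on GRCm38, and promoters from RefSeq. On simulated counts for libraries 1 and 3 (11668 and 11846 genes), 50 of 50 genes made 4-fold higher were past 2-fold in each library, as were 45 of 50 made 4-fold lower. Of 50 genes made 2-fold higher, 3 and 15 were past it, and of 50 made 2-fold lower, 9 and 11. Unchanged genes past 2-fold numbered 0 of 11468 in library 1, and 7 higher and 64 lower of 11646 in library 3. These counts were drawn from the summed B cell profile with counting error only, and the changed genes were ones with many B cell UMIs. Variation between cells was not simulated, so these numbers do not give the error rate of the real sums. Python 3.11.15, numpy 2.4.6, scipy 1.17.1, pandas 2.3.3 and matplotlib 3.10.9 were used. Alternatives covered the denominator, the pseudocount, filters, cell rules, the mean over cells, each library alone and the class limits. Leaving out Ighv4-1 plasma cells or hormone-rich B cells and counting Igkv alone were added after seeing the data. Values of 2 named genes are not reported here.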

Additional observations from a re-analysis of the deposited data

How the results depend on the processing

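No paired analysis was possible because the libraries carry no sample or replicate label and no test was run. With all UMIs in the total, 229 genes were higher and 911 lower in both libraries, 566 were higher in library 1, and 302 were higher and 2026 lower in library 3. The 229 were all among the 475, and 516 of the 520 were among the 911. The median of all genes shifted by -0.14 and -0.31, and 10 in place of 13 list medians were past 2-fold. With a pseudocount of 1, which understates low genes less, the counts were 720 and 1637 in both libraries, 1372 and 3198 in library 1, and 1188 and 3207 in library 3, with all 475 and 520 among them. With the mean of each cell's level, 1122 genes were higher in library 3, and 695 were higher and 630 lower in both, with 454 of the 475 and 394 of the 520 among them. Library 1 or 3 alone gave 719 to 881 higher and 975 to 1019 lower genes, as a single library has to meet the limit once. Without plasma cells past the Cd3e, Lyz2 or C1qa, or hormone limits, library 2 held 0. At 95% of heavy constant UMIs, 45 cells of library 1 were led by Ighm. Counting Igkv segments alone, with Igkv10-94 and Igkv10-96 together, 42 cells of library 1 were led by Igkv10, against 1 with each segment separate and Iglv included, an alternative added after seeing the data. Also added then, leaving out B cells rich in hormone transcripts gave 561 higher and 475 lower genes and turned the mean log2 ratio of Resp18 to 0.49. Resp18 was the only named gene past 2-fold in both libraries whose mean log2 ratio changed sign under any setting. Sign changes of the other named genes were not counted. Of the 125 named genes, 117 were past 2-fold with 1 sign in both libraries, and 113 to 119 under the other settings. Outside the markers and transcription factor lists, genes were named because they passed 2-fold in both libraries, so the 117 follows from that choice. The 3 plasma cells of library 2 and the 3 IgG cells of library 3 are too few for any statement beyond their own values.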
